A study of Mus musculus with 12 samples.

Results

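The 10 genes described here encode proteins that coat lipid droplets, release fatty acids from them, or are induced when fatty acids activate the peroxisome proliferator-activated receptors (PPARs). They were taken from the count table by symbol and are Plin2, Plin3, Plin5, Pnpla2, Lipe, Angptl4, Acot1, Acot2, Ucp2 and Ucp3. All 10 were found among its 55401 rows, and all 10 were among the 16213 genes that passed the filter on low counts. RNA was sequenced in bulk from hearts of WT mice of the C57BL/6J strain, in 4 groups of 3 libraries. The exercised females and exercised males ran at 1 km/h on a treadmill, 45 min on each of 5 days a week, over 6 weeks, and the sedentary females and sedentary males of the same age were kept caged for those 6 weeks. The design asks which transcripts running changes in the heart and, with both sexes sampled, whether the sexes differ. The labels give no age, and they do not state that each library is a separate animal, so the p-values speak only of the spread from library to library. Libraries are called by group and number, for example female sedentary 1.

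The adult heart takes most of its energy from fatty acids and keeps a small store of triglyceride in droplets. Perilipins coat these droplets and control the access of lipases, and the fatty acids that the lipases release serve both as fuel and as ligands of PPAR alpha and PPAR delta. Once bound by ligand, these receptors pair with a retinoid X receptor on paired AGGTCA-like elements in DNA and raise the transcription of genes for fatty acid use, many of the 10 genes among them.

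Total counts ran from 22204349 to 32566240 per library, and 27.3% of the counts of female sedentary 2 lay in mitochondrial rows that were at 0 in the other 11 libraries; without these rows the highest total was 26607844. Cardiomyocyte identity was plain in every library, with Myh6, the alpha myosin heavy chain, between 25525 and 30969 counts scaled to library size, as CPM,. Female exercised 2, female sedentary 1 and female sedentary 2 also carried atrial transcripts, with Myl7, the atrial myosin light chain, at 107, 65.6 and 23.0 CPM, against 2.33 CPM or less in the other libraries. Summed over 5 atrial markers, Nppa among them, female sedentary 3 was at 251 CPM, near female sedentary 2 at 253 CPM. These sums were 38.3 to 81.7 CPM in exercised males and 54.1 to 136 CPM in sedentary males. In bulk RNA, fewer cells of a type and less RNA per cell cannot be told apart. The 10 genes were covered by 51 counts (Angptl4 in male sedentary 1) to 10680 counts (Pnpla2 in female exercised 1).

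Promoter sequences are shown for the 5 genes in the pairs with the smallest adjusted p for covariation between libraries, described further on. RefSeq (GRCm38.p6) promoters of 300 bases, from 250 before to 50 after the start of transcription, were matched for 9 of the 10 genes. Plin5 and Lipe had a pair each, which makes 11 promoters. Each is printed 5′ to 3′ on the strand of the gene, and capitals mark AGGTCA (the core element of nuclear receptors), CACGTG (the E-box) and CCAAT, on either strand.
Acot1: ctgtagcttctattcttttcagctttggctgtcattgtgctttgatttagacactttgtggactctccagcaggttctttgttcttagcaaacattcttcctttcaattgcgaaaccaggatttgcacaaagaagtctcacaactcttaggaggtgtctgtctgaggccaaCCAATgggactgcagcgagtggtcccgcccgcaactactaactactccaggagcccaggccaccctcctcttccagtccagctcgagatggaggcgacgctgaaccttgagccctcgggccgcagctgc
Acot2: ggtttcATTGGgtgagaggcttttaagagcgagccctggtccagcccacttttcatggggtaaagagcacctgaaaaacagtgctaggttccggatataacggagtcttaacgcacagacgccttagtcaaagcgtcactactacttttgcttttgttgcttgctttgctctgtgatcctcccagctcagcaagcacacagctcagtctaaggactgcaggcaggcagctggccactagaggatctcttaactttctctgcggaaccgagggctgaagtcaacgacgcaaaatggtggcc
Lipe: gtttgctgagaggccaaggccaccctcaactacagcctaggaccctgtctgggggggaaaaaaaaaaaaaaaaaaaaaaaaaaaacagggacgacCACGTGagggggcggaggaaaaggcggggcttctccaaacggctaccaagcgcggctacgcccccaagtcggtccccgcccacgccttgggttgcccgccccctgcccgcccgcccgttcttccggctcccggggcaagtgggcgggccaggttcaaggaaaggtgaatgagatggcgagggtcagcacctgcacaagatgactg
Plin5: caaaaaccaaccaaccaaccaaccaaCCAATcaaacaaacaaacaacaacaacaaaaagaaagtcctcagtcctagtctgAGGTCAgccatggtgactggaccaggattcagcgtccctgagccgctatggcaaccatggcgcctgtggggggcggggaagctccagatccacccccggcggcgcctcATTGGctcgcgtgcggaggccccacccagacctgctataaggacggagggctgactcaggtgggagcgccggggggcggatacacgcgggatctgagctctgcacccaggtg
Ucp3: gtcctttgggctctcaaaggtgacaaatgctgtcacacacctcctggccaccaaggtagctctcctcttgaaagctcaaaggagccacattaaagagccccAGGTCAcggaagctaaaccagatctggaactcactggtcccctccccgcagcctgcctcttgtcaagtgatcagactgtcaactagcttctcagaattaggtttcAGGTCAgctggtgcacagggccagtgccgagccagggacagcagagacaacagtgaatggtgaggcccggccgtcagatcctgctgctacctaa

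These stretches are chr12:84009252-84009551 (+ strand) for Acot1, chr12:83987611-83987910 (+) for Acot2, chr7:25395938-25396237 (-) for Lipe, chr17:56117499-56117798 (-) for Plin5 and chr7:100472741-100473040 (+) for Ucp3. Ucp3 held AGGTCA at positions -149 and -44 from its start, and Plin5 held it at -170. In the other promoters it stood in Plin2, at -218 on the opposite strand, and in the other Plin5 promoter, at 14. Of 32851 promoters of this length, 16.3% held AGGTCA. The full PPAR element, written AGGNCANAGGNCA (2 AGGTCA-like elements with 1 base between them, so that it can contain an AGGTCA), was searched on both strands, was in 0 of the 11 promoters and was in 0.381% of all. CACGTG, at -155 in Lipe and at -4 in Plin2, was in 7.15% of all promoters. CCAAT was in the promoters of Plin2, Plin3, Plin5, Acot1 and Acot2 and in 37.4% of all. TGACGTCA, the cyclic AMP response element, was in none of the 11 and in 1.79% of all, and no marked match overlapped another.

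Levels per kilobase of exon (RPKM, the CPM divided by the length of the merged exons of GENCODE M21) put lipase and coat genes on top. Pnpla2, which encodes adipose triglyceride lipase, the enzyme of the first step of triglyceride breakdown, averaged 116 ± 15.4 RPKM (SD, n = 12), above the next gene in 12 of 12 libraries. Plin5, the perilipin of oxidative tissues that brings droplets next to mitochondria, followed at 65.7 ± 10.4 RPKM and Plin3, a perilipin that shuttles between cytosol and nascent droplets, at 57.4 ± 3.95 RPKM. Plin5 was above Plin3 in 10 of 12 libraries. Acot2, the acyl-CoA thioesterase of the mitochondrial matrix, stood at 38.3 ± 6.58 RPKM, below Plin3 and above Plin2 in every library. Plin2, the perilipin present on droplets of most cell types, was at 18.4 ± 1.48 RPKM and above Ucp3 in 10 of 12 libraries. Ucp3, the uncoupling protein of heart and skeletal muscle mitochondria, averaged 14.5 ± 8.09 RPKM. Ucp2, Acot1 (the cytosolic thioesterase) and Lipe (hormone-sensitive lipase, which acts on diacylglycerol) lay close together, at 6.54 ± 1.80, 6.01 ± 1.91 and 5.96 ± 1.13 RPKM. Their order changed between libraries, with Ucp2 above Acot1 in 9 and Acot1 above Lipe in 5 of 12. Angptl4, a secreted inhibitor of lipoprotein lipase, was lowest, at 1.68 ± 0.81 RPKM. Merged exons include every annotated isoform, so a gene with many isoforms, such as Ucp2 with 6989 bases, gets a lower level per kilobase.

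Of the coat genes, Plin2 and Plin3 varied least among all 10 genes and Plin5 more. Plin2 (chr4:86648386-86670060, GRCm38) had 54.7, 56.8 and 67.4 CPM in the exercised females, against 64.3, 63.7 and 62.0 CPM in the sedentary females. In exercised males it was at 68.2, 72.6 and 67.0 CPM, against 66.4, 63.3 and 70.5 CPM in sedentary males. Exercised and sedentary libraries overlapped in both sexes, and the lowest values were female exercised 1 and 2. Plin3 (chr17:56277476-56292873) kept within 193 to 245 CPM over the 12 libraries. Plin5 (chr17:56111601-56117596) was at 186, 127 and 149 CPM in the exercised females, against 149, 132 and 112 CPM in sedentary females. In exercised males Plin5 was at 145, 109 and 111 CPM, against 145, 140.5 and 142 CPM in sedentary males. The sedentary males were nearly level with each other, and 2 of the 3 exercised males lay below all of them.

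Among the lipase genes, Pnpla2 (chr7:141455198-141460743) was at 445, 374 and 356 CPM in the exercised females, against 372, 318 and 281 CPM in sedentary females. All but 1 pair of these libraries stood in the order exercised above sedentary, the exception being female sedentary 1 over female exercised 3. In exercised males Pnpla2 was at 338, 408 and 310.4 CPM, against 324, 371 and 307 CPM in sedentary males, and the groups overlapped. Lipe (chr7:25379527-25398710) was at 43.8, 34.2 and 37.3 CPM in the exercised females, against 43.6, 35.1 and 23.4 CPM in sedentary females. Exercised males had 45.1, 30.1 and 30.7 CPM of Lipe, against 28.5, 32.4 and 36.6 CPM in sedentary males. Female sedentary 3 was the lowest of all libraries for Lipe and for Pnpla2. White fat also expresses both lipases, and its transcripts were uneven: 9 adipocyte markers summed to 1.54 to 184 CPM in exercised females, 2.87 to 27.2 CPM in sedentary females, 1.08 to 6.87 CPM in exercised males and 1.58 to 2.79 CPM in sedentary males. The highest sum was in female exercised 2, where Adipoq, which encodes adiponectin, reached 10.1 CPM (it was at 0 in 3 libraries). That library was the lowest of the exercised females for Lipe and the middle one for Pnpla2. The part of fat in the levels of these lipase genes was not tested.

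Angptl4 (chr17:33773750-33781830) was at 5.37, 2.52 and 5.95 CPM in the exercised females, against 7.35, 3.58 and 5.21 CPM in sedentary females. It was at 11.3, 4.46 and 5.62 CPM in exercised males, against 1.92, 8.25 and 10.02 CPM in sedentary males. The male libraries held both the highest and the lowest value, and sedentary males alone spanned 5.21-fold. The thioesterase genes Acot1 (chr12:84009490-84018371) and Acot2 (chr12:83987861-83993873) lie 15616 bases apart. Acot1 was at 36.6, 21.2 and 23.9 CPM in the exercised females, against 26.6, 14.3 and 11.4 CPM in sedentary females. In exercised males Acot1 was at 34.1, 18.7 and 17.5 CPM, against 26.3, 24.1 and 27.7 CPM in sedentary males. In each of exercised females, sedentary females and exercised males, library 1 was the high one and the other two were lower, while sedentary males were even. Acot2 ran from 73.7 to 102 CPM in exercised females, from 59.0 to 88.4 CPM in sedentary females, from 69.6 to 109 CPM in exercised males and from 82.4 to 95.7 CPM in sedentary males. Of stretches of 50 bases in their transcripts, 19.2% for Acot1 and 27.7% for Acot2 also occur in another gene, mostly of the same family, so a part of their counts is uncertain.

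Ucp3 (chr7:100472990-100486432) was at 40.6, 27.4 and 60.6 CPM in the exercised females, against 54.1, 41.3 and 25.3 CPM in sedentary females. In exercised males it was at 117, 30.0 and 27.4 CPM, against 28.0, 42.8 and 51.4 CPM in sedentary males. Male exercised 1 stood apart, and the 2 other exercised males were close to the lowest sedentary male. Ucp2 (chr7:100493337-100502020), which starts 6904 bases beyond Ucp3, was at 75.1, 51.3 and 48.5 CPM in the exercised females, against 59.2, 51.0 and 38.7 CPM in sedentary females. In males Ucp2 was at 45.8, 37.0 and 32.5 CPM after exercise, against 34.5, 43.6 and 31.7 CPM without it. The exercised and sedentary libraries overlapped in both sexes, and the 5 highest values were all female. Ucp2 and Lipe share exon bases with genes on the other strand, Dnajb13 and 4732471J01Rik, which had 1 to 9 and 3 to 18 counts per library. Whether the counting used strand is not given in the sources used here.

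**Figure D1:**
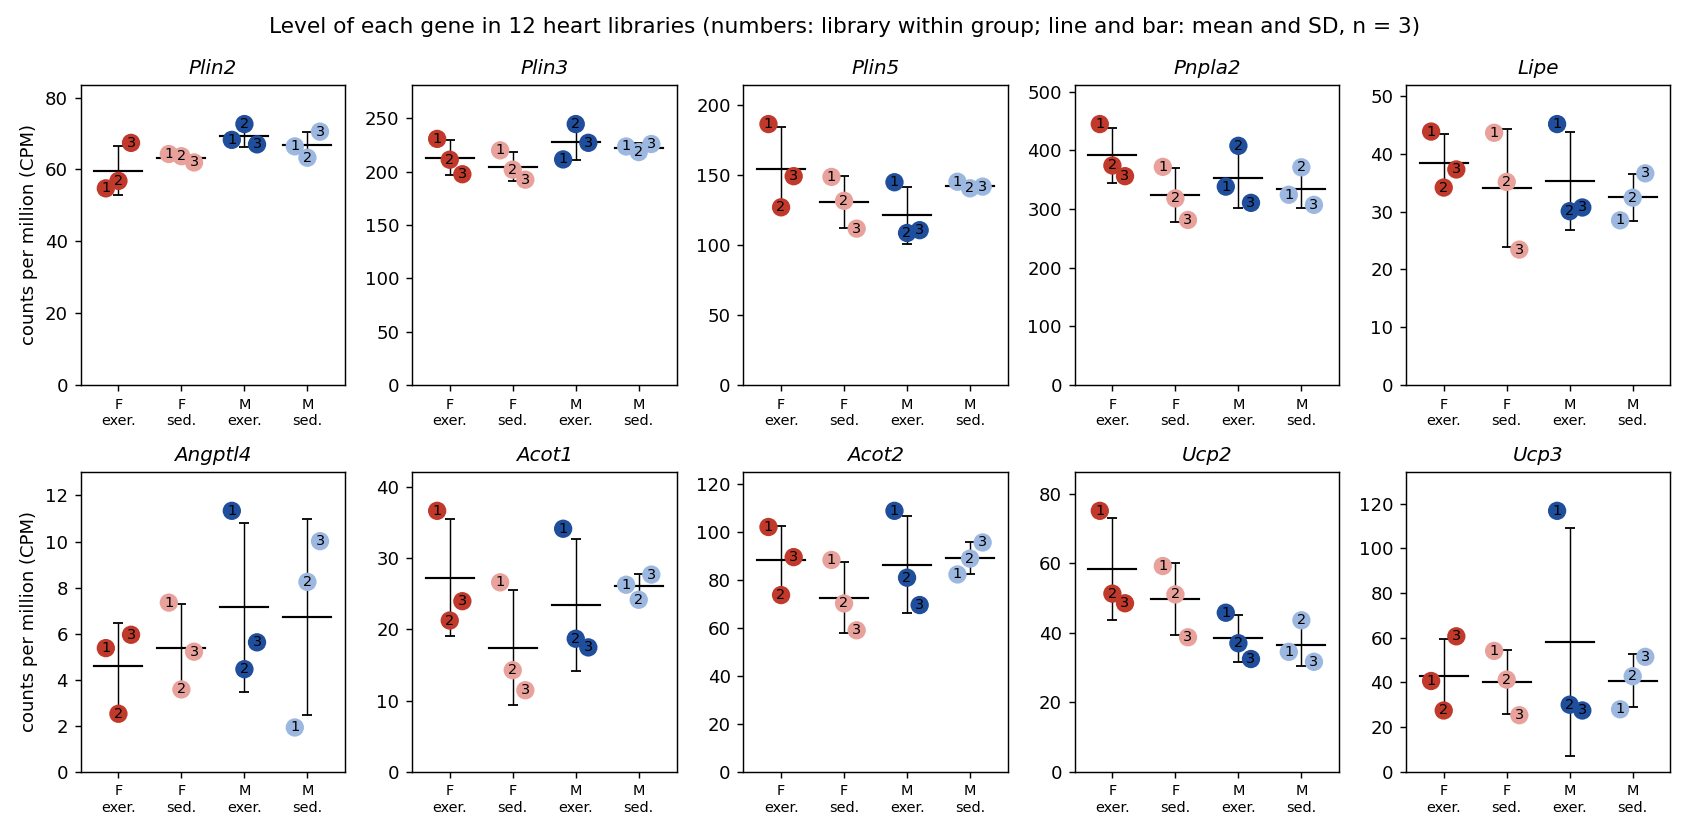
Level of each of the 10 genes in CPM (vertical axes, each starting at 0) in exercised and sedentary females and exercised and sedentary males; points are libraries, numbered within the group, and the line and bar are the mean and SD of 3. Exercised and sedentary points overlap within each sex for all 10 genes, and Ucp3 in male exercised 1 stands apart at 117 CPM.

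No change of any of the 10 genes with exercise passed the test in females or in males. In females, 8 of the 10 log2 differences (exercised minus sedentary) were above 0, with a median of 0.20, while 50.1% of all tested genes were above 0. Acot1 had the largest difference, 0.64 ± 0.37 (SE), with a 95% interval of -0.19 to 1.47. Pnpla2 had the smallest p of the 10, with 0.27 ± 0.13 and an unadjusted p of 0.0488 in edgeR's quasi-likelihood test. It was the only 1 of the 10 genes under 0.05, where 3.93% of all genes were. Acot2 was at 0.29 ± 0.19, Plin5 at 0.24 ± 0.15, Ucp2 at 0.23 ± 0.21 and Lipe at 0.17 ± 0.23. Plin3 was at 0.06 ± 0.08, Plin2 at -0.09 ± 0.08, Ucp3 at 0.09 ± 0.61 and Angptl4 at -0.22 ± 0.61. By the quasi-likelihood test of edgeR, adjusted after Benjamini and Hochberg over all genes tested, every adjusted p was 1.00, and 0 of all 16213 genes (0%) were called in females, with 637 at an unadjusted p under 0.05. DESeq2 called 1 gene, none of these 10, and limma's voom with sample weights called 0. No gene of the 10 had exercised and sedentary females that did not overlap, against 9.79% of all genes. Leaving out 1 library turned the sign for Angptl4, Plin3, Lipe and Ucp3, and took Acot1 to between 0.37 (without female exercised 1) and 1.08 (without female sedentary 1).

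In males, 7 of the 10 differences were above 0, with a median of 0.06, against 50.1% of all genes above 0. Ucp3 was at 0.52 ± 0.61, with a 95% interval of -0.87 to 1.91, and without male exercised 1 it was at -0.50. Plin5 was at -0.23 ± 0.15, the smallest p of the 10, which gave an adjusted p of 0.709 by edgeR's quasi-likelihood test (Benjamini-Hochberg). Acot1 was at -0.15 ± 0.36, Lipe at 0.12 ± 0.23, Angptl4 at 0.10 ± 0.60, Pnpla2 at 0.08 ± 0.13 and Ucp2 at 0.07 ± 0.22. Plin2 was at 0.05 ± 0.08, Plin3 at 0.03 ± 0.08 and Acot2 at -0.04 ± 0.18. None was under an unadjusted p of 0.05, where 7.84% of all genes were, and in none did the exercised and sedentary males fail to overlap, where 12.3% of all genes did. The test called 0 of 16213 genes in males (0%), with 1271 at an unadjusted p under 0.05; DESeq2 called 25 and voom 0. Leaving out 1 library also turned the sign for Angptl4, Plin3, Pnpla2, Lipe, Acot1, Acot2 and Ucp2.

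For Plin2 and Plin3 the 95% intervals of both sexes lay between -0.25 and 0.22 on the log2 scale. For Pnpla2 they ran from 0.00 to 0.55 in females and from -0.20 to 0.35 in males. For Angptl4 they reached from -1.60 to 1.45 over both sexes and for Ucp3 from -1.30 to 1.91, and a log2 difference of 1, a change of 2-fold, lay inside the intervals of both genes in both sexes.

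The test of the difference between the exercise effects (females minus males) called 0 of 16213 genes (0%), with 769 (4.74%) at an unadjusted p under 0.05. Plin5 had the smallest p of the 10, with a difference of 0.47 ± 0.21, an unadjusted p of 0.0448 and, by edgeR's quasi-likelihood test (Benjamini-Hochberg), an adjusted p of 0.930. It ranged from 0.31 without female exercised 1 to 0.62 without male exercised 1. Acot1 was at 0.79 ± 0.51. The average of both effects was largest in evidence for Pnpla2, at 0.17 ± 0.09 with an adjusted p of 0.782 in the same test. In that average, 0 of 16213 genes (0%) were called, with 1018 (6.28%) at an unadjusted p under 0.05, and 8 of the 10 were above 0, against 50.5% of all genes.

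Between the sexes, Ucp2 differed most among the 10. Ucp2 is an uncoupling protein found in many tissues and is abundant in immune cells. Averaged over both conditions, it was 1.43-fold higher in females than in males, a log2 difference of 0.52 ± 0.15 (female minus male, 95% interval 0.18 to 0.86), with an unadjusted p of 0.00636 and an adjusted p of 0.0806 by edgeR's quasi-likelihood test (Benjamini-Hochberg). It therefore did not pass at 0.05, where 5.05% of all genes passed (818 of 16213, 2.16% higher in females). The adjusted p was 0.00534 in DESeq2 and 0.0489 with spread estimates without robustness, so the call depended on the tool. Ucp2 ran from 0.41 to 0.60 across fits that each left out 1 library, higher in females in each. The 3 exercised females were all above the 3 exercised males (0.60 ± 0.21, adjusted p = 0.382 in edgeR's test), the only one of the 10 genes without overlap in that comparison, where 14.3% of all genes had none. The sedentary groups overlapped, while 25% of all genes did not (0.44 ± 0.22), and the difference shrank to 0.30 without female sedentary 1.

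Macrophage markers were compared in the same average. Of 9 such markers, 9 had differences above 0, with a median of 0.27, and 0 were called. None was at 0 in any library. Their summed level was 387 to 397 CPM in exercised females, 283 to 365 CPM in sedentary females, 272 to 359 CPM in exercised males and 206 to 327 CPM in sedentary males. With the mean of these markers as a covariate, a setting chosen after the data were seen, Ucp2 was at 0.40 ± 0.18 (adjusted p = 0.397 in edgeR's test). With the atrial markers as a covariate it was at 0.37 ± 0.21, and without the 3 libraries rich in Myl7, also chosen after the data were seen, at 0.38 ± 0.18. Of the sedentary females these 9 hold only female sedentary 3, so the average and its SE take that lone library to vary like the other groups. In them the exercised difference, with 2 females against 3 males, was 0.68 ± 0.22.

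Plin2 lay in the other direction, with a difference of -0.15 ± 0.06 averaged over both conditions and an adjusted p of 0.148 by edgeR's quasi-likelihood test (Benjamini-Hochberg). Ucp2 and Plin2 were the 2 of the 10 at an unadjusted p under 0.05, where 21.2% of all genes were. Without female exercised 3 Plin2 was at -0.19 and passed, with an adjusted p of 0.0406. In exercised hearts alone Plin2 was at -0.22 ± 0.08 (unadjusted p of 0.0158) and Plin5 at 0.34 ± 0.15 (unadjusted p of 0.0384), and with Ucp2 they made 3 of 10 genes under 0.05, where 9.84% of all genes were. The test called 26 genes in exercised hearts (0.16%) and 358 in sedentary hearts (2.21%), none of the 10. In sedentary hearts 0 of the 10 were under an unadjusted p of 0.05, where 18.4% of all genes were. There, Acot1 was at -0.57 ± 0.37, and 8 of the 10 lay below 0 with a median of -0.10.

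**Figure D2:**
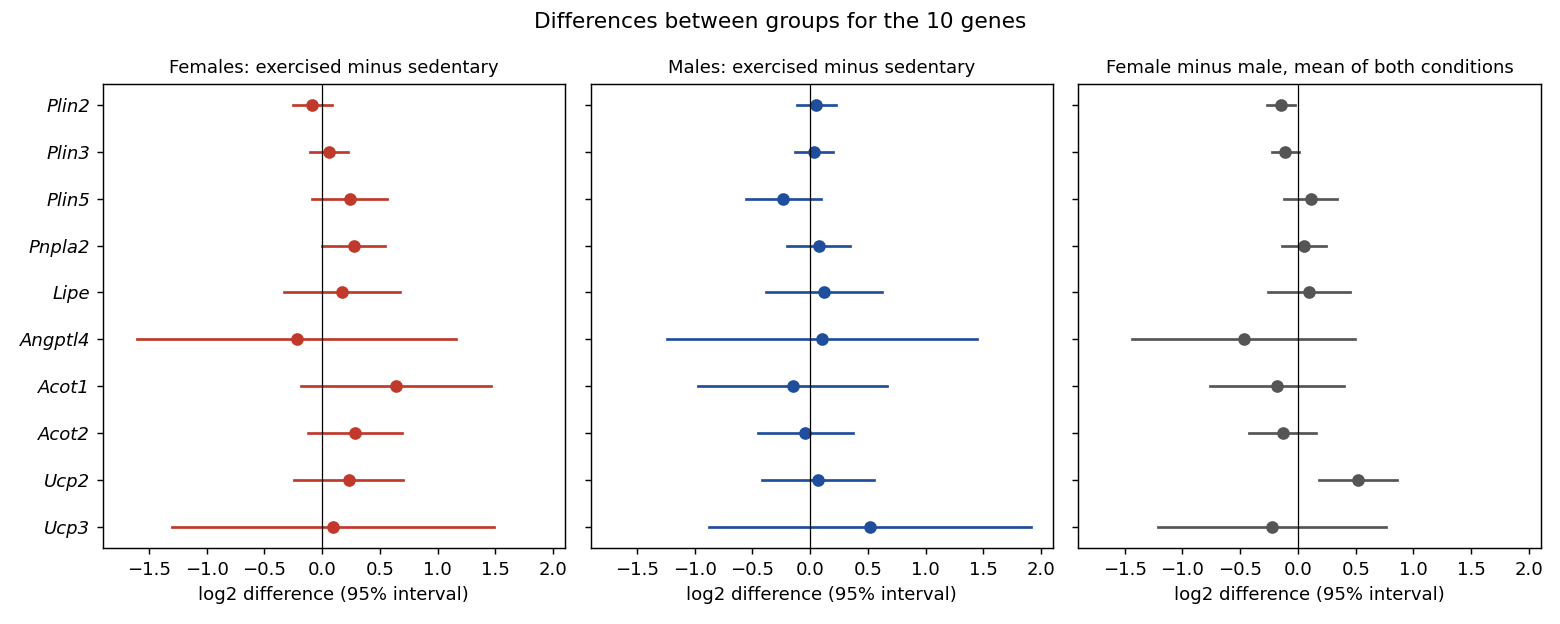
Log2 difference between groups for each gene, as a point with its 95% interval: exercised minus sedentary in females (left) and in males (middle), and female minus male averaged over both conditions (right). The intervals of Ucp3 and Angptl4 are widest and those of Plin2 and Plin3 narrowest, and the interval of Ucp2 in the right panel runs from 0.18 to 0.86.

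Much of the variation of these genes lay between libraries of the same group. The SD between libraries of 1 group, on the log2 CPM scale and pooled over the 4 groups, was 0.84 for Angptl4, 0.74 for Ucp3 and 0.46 for Acot1. Among the 500 tested genes nearest in level to each, 99.6%, 99.8% and 99.0% had a smaller SD. Lipe (0.31), Ucp2 (0.29), Acot2 (0.26) and Plin5 (0.21) were also more variable than 90.6% or more of the genes near them in level. Pnpla2 was at 0.18, and Plin2 and Plin3 were at 0.10 and 0.09, near the middle of their neighbours in level (48.2% and 44.6% smaller).

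The order of the libraries within a group was shared by many of the 10 genes. Female sedentary 1 was the highest of its group for all 10, and 31.3% of all tested genes were highest there. Female sedentary 3 was the lowest of its group for 9 of the 10, all but Angptl4, against 35.8% of all genes. Female exercised 1 was the highest for 7 of the 10, all but Angptl4, Plin2 and Ucp3, against 31.3% of all genes. Male exercised 1 was the highest for 7, all but Plin2, Plin3 and Pnpla2, against 31.3% of all genes. Male sedentary 3 was the highest for 7 as well, against 36.0% of all genes. In deviation from the group mean, Ucp3 stood at 1.35 on the log2 scale in male exercised 1 and Angptl4 at -1.46 in male sedentary 1, the extremes of all 10 genes. Female sedentary 1, the high library, also held the most red cell RNA, with 3630 CPM of 7 erythroid markers. Female sedentary 2, with 1748 CPM, was highest for 0 of the 10 genes, against 32.6% of all genes. Female exercised 2, the library with the most Myl7 (107 CPM, against 65.6 CPM in female sedentary 1), was the lowest of its group for 6 of the 10, against 33.8% of all genes. The part of this RNA in the pattern was not tested.

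**Figure D3:**
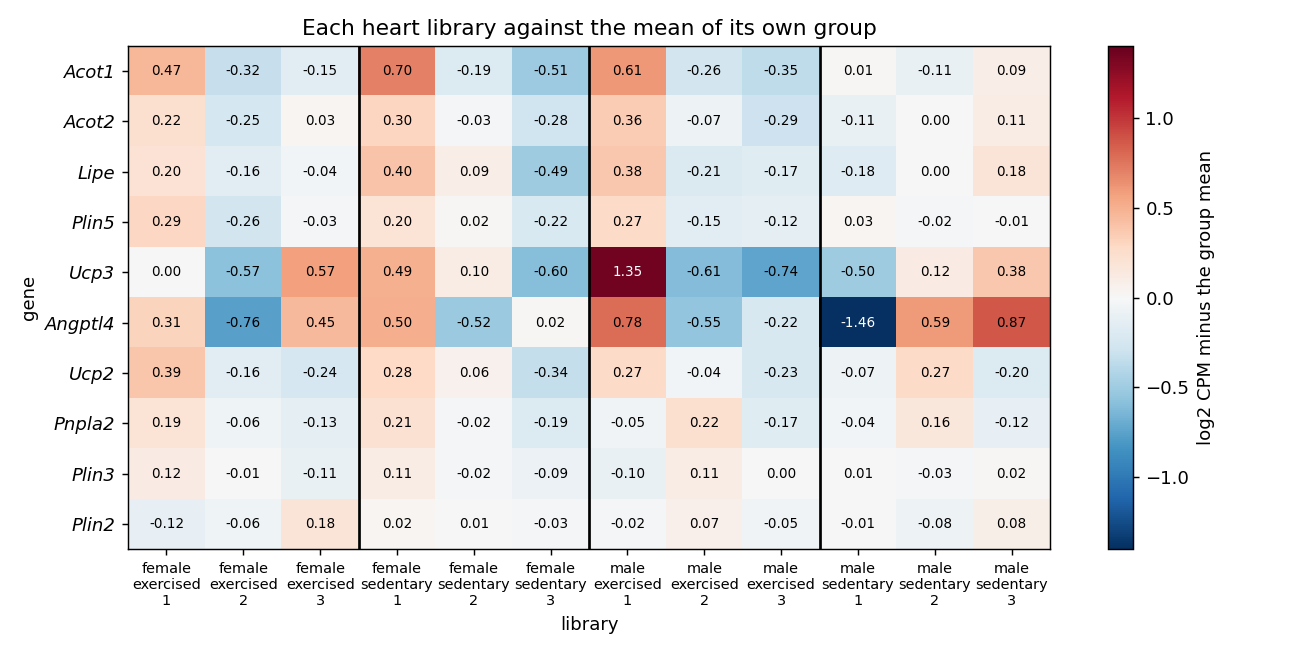
Log2 CPM of each gene (rows) in each library (columns) minus the mean of the library's own group; red is above and blue below the group mean, and black lines separate the 4 groups. Acot1, Acot2, Lipe and Plin5 share their colours in most columns, while Plin2 and Plin3 stay close to 0.

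These deviations were compared between genes over the 12 libraries, with exact two-sided permutation tests that reassign libraries within groups (1296 assignments, smallest possible p of 7.716e-04). Of 45 pairs, 38 were positively correlated and 18 had a p under 0.05, but the smallest Benjamini-Hochberg adjusted p was 0.0521, so 0 pairs passed at 0.05. All values share the scaling of their library. Pairs of other genes were not compared, so these counts have no share over all genes beside them and are not a trait of these genes. Acot1 and Acot2 were closest, with Pearson's r of 0.94 (exact permutation p = 0.00231, adjusted p = 0.0521) and Spearman's rho of 0.91 (exact permutation p = 0.00231, adjusted p = 0.0608). Without the 2 libraries farthest from the median of Acot1, female sedentary 1 and male exercised 1, r was 0.88. Lipe and Acot2 had r of 0.92 (exact permutation p = 0.00154, adjusted p = 0.0521) and rho of 0.88 (p = 0.00540, adjusted p = 0.0608), and r of 0.90 without 2 libraries. Plin5 and Acot1 had r of 0.92 (exact permutation p = 0.00540, adjusted p = 0.0521) and rho of 0.88 (p = 0.00540, adjusted p = 0.0608), and r of 0.88 without 2 libraries.

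Ucp3 followed Acot2, with r of 0.86 (exact permutation p = 0.00540, adjusted p = 0.0521), rho of 0.86 (p = 0.00540, adjusted p = 0.0608) and r of 0.77 without male exercised 1 and female sedentary 1. Angptl4 followed Ucp3, with r of 0.72 (exact permutation p = 0.0139, adjusted p = 0.0694), rho of 0.72 (p = 0.0100, adjusted p = 0.0752) and r of 0.72 without 2 libraries. Pnpla2 was nearest to Ucp2, with r of 0.77 (exact permutation p = 0.0216, adjusted p = 0.0748), rho of 0.83 (p = 0.0123, adjusted p = 0.0794) and r of 0.89 without 2 libraries. Plin2 had no pair with a p under 0.05, and its r with the other 9 genes ran from -0.43 (Ucp2) to 0.29 (Ucp3). Acot1 and Acot2 share stretches of sequence, so reads could be split between them, whereas Lipe, Plin5 and Ucp3 share none with them at 50 bases.

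**Figure D4:**
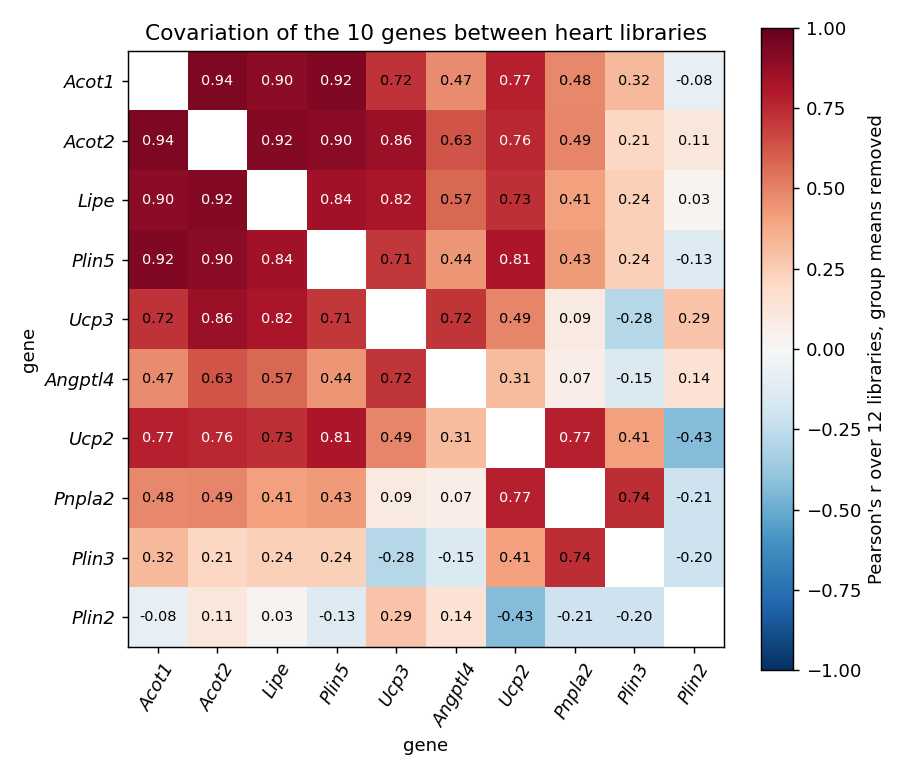
Pearson's r between each pair of the 10 genes over 12 libraries after the mean of each group was removed (red positive, blue negative, value printed in each cell). Acot1, Acot2, Lipe and Plin5 form a block with r from 0.84 to 0.94, and Plin2 stays between -0.43 and 0.29.

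For the 3 most variable genes, the tested genes with the most similar deviations were those with the smallest root mean square (RMS) difference over the 12 libraries. For Angptl4 these were Gm9922, Jaml, Gm31600, Pdk4 and Nts, with RMS differences from 0.29 to 0.38 where the median gene was at 0.70. Pdk4, the kinase that shuts down pyruvate dehydrogenase and a known PPAR target, was the one with high counts, from 254 CPM in male sedentary 1 to 762 CPM in female sedentary 1. Like Angptl4 it was lowest of all libraries in male sedentary 1. For Ucp3 they were Cpn2, Gm9922, Gm11944, 2310015K22Rik and Gm16170 (0.24 to 0.35, median gene 0.62), each with 87 counts or fewer in every library. For Acot1 they were Olfr1336, Gm3325, Arl11, Trim5 and Lipe (0.14 to 0.19, median gene 0.41), of which Lipe, one of the 10 genes, had more than 500 counts in each library.

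Other genes of droplets and of the PPAR pathway were counted from lists. Of 18 other lipid droplet genes, 14 had differences above 0 with exercise in females (median 0.11) and 6 in males (median -0.01), with 0 called in either. In females against males, 9 of the 18 were above 0 and 1 of the 18 passed, a share near that of all genes (5.05%). That gene, Abhd5, which encodes the coactivator of the lipase of Pnpla2, was lower in females (-0.20 ± 0.04, adjusted p = 0.0194 in edgeR's quasi-likelihood test). Abhd5 was at 36.8, 40.1 and 37.4 CPM in exercised females and 38.4, 39.2 and 37.9 CPM in sedentary females, against 43.4, 40.5 and 43.4 CPM in exercised males and 45.7, 45.9 and 45.0 CPM in sedentary males. Every female library was below every male library, which held for 2.02% of all genes in that direction. Pnpla2 itself was at 0.05 ± 0.09 in the same comparison.

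Of 22 tested genes among 24 other PPAR targets, mostly enzymes of fatty acid oxidation, 18 were below 0 in females against males (median -0.21, while 52.8% of all genes were above 0) and 9 were called lower, where 2.89% of all genes were, and 0 higher. In sedentary hearts 20 of the 22 were below 0 (median -0.32) and 10 were called lower, where 1.36% of all genes were, and in exercised hearts 18 were below 0 and 0 were called. The test of the difference between these sex effects is that of the difference between the exercise effects, which called 0 genes. In it, 13 of the 22 were above 0 at an unadjusted p under 0.05 and 0 below, where 2.34% of all genes were above and 2.4% below. In the sedentary comparison all 8 cardiomyocyte markers were below 0, and the tested erythroid, atrial and adipocyte markers had medians of 5.89, 4.90 and 2.69. Over all genes, the calls there fell to 71 with the atrial markers as a covariate and to 68 without male sedentary 3, against 358 as reported. How many of the 10 calls of this list were left was not tested. In the sex difference averaged over both conditions, Acadm, the medium-chain acyl-CoA dehydrogenase, was at -0.33 ± 0.04 (adjusted p = 3.708e-04 in edgeR's test). Slc25a20, the carnitine carrier of mitochondria, was at -0.43 ± 0.07 (adjusted p = 0.00336). Over all genes, the calls in that average were 124 with the atrial, 278 with the adipocyte and 92 with the macrophage covariate, against 818. How many of the 9 calls of this list were left was not tested either. Of the 10 genes described here, 6 were below 0 in that average (median -0.12) and 0 were called. With exercise, 21 of the 22 were above 0 in females (median 0.16) and 5 in males (median -0.12), and 0 were called in either sex. At an unadjusted p under 0.05 in edgeR's test, 10 of the 22 were higher in exercised females, where 1.89% of all genes were. In males 3 were lower at that threshold, where 3.6% of all genes were.

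Among 10 regulators of the pathway, Ppara, which encodes PPAR alpha, was at 20.2, 24.4 and 22.1 CPM in exercised males, against 31.6, 30.3 and 32.3 CPM in sedentary males. The 3 exercised males were all below the 3 sedentary ones (-0.50 ± 0.13), but the adjusted p was 0.567 in edgeR's quasi-likelihood test, and 6.16% of all genes lay apart in that direction. In exercised females Ppara was at 29.7, 27.6 and 23.4 CPM, against 24.4, 27.9 and 18.3 CPM in sedentary females. Ppargc1a, the coactivator of PPAR alpha, was at 67.2, 105 and 83.5 CPM in exercised males, against 158, 121 and 125 CPM in sedentary males (-0.66 ± 0.18, adjusted p = 0.588). Neither difference was a call. None of the 10 genes described here lay apart in either direction between these groups of males, where 12.3% of all genes did.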

How the data were processed

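Bulk RNA from mouse hearts was sequenced in 12 libraries, 3 for each sex and condition, grouped by the labels. The authors deposited raw counts per gene. The submitters' processing notes name Trimmomatic 0.36, STAR 2.5.2b, featureCounts of Subread 1.5.2 and the build GRCm38, without roles. The kit, strand setting and annotation release were not given in the sources used here. Of the 55401 rows, 54349 had the same versioned identifier in GENCODE M21 (GRCm38), which gave symbols, coordinates and exon lengths.

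R 4.3.3 and edgeR 4.0.16 were used for the tests: filterByExpr, TMM scaling, 1 group-means model for all 12 libraries (8 residual degrees of freedom), and the robust quasi-likelihood test, with p adjusted after Benjamini and Hochberg over 16213 genes and a threshold of 0.05. Total counts ran from 22204349 to 32566240. Levels are CPM and RPKM with the SD. Covariation used log2 CPM with a prior count of 2. Scripts were tested on simulated data. Alternatives were RLE and upper-quartile scaling, no filter, CPM above 1 in 3 libraries, DESeq2 1.42.0, voom of limma 3.58.1, spread without robustness, fits of only the groups compared, atrial and adipocyte markers as covariates, a prior count of 0.5 and each library left out. Added after the data were seen were a macrophage covariate, the 9 libraries with little Myl7, and a bias-adjusted edgeR fit of unfiltered counts.

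The 10 genes and the gene lists were chosen with earlier results of these data known. Named from each other list were at most 4 genes of smallest unadjusted p in an exercise contrast or the averaged sex contrast, plus marker genes given beside a result and the 5 genes most like each of the 3 most variable of the 10. Of the covariation pairs, those printed were chosen after their values were seen.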

Additional observations from a re-analysis of the deposited data

How the results depend on the processing

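None of the 10 genes passed in an exercise contrast under any setting but the planned fit without a filter. In sex contrasts that fit also called Ucp2, Acot1, Ucp3, Angptl4, Plin5 and Acot2, none of which passed in the fit as reported. That fit took in genes with almost no counts, called 357 genes for exercise in females, 327 in males, 173 for their difference, 399 for their average, 1317 for sex in sedentary hearts, 531 in exercised hearts and 1683 for the sex average, and shrank the SE of Ucp3 in males to 0.09 from 0.61; the bias-adjusted test without a filter called 0 genes in the exercise contrasts and 43 for sex in exercised hearts. DESeq2 called 1, 25, 10, 14, 866, 167 and 1371 genes in that order. For sex in sedentary hearts the count was 71 with the atrial and 201 with the adipocyte covariate and 14 in the 9 libraries, where the sedentary females are 1 library, female sedentary 3; for exercised hearts it was 15 from only the groups compared; for the average it was 124 (atrial), 278 (adipocyte), 92 (macrophage) and 119 (9 libraries). Leaving out 1 library gave 0 to 1 calls for exercise in females, the difference and the average exercise effect, 68 to 462 for sex in sedentary hearts, 17 to 55 in exercised hearts and 421 to 837 for the average.

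Signs that turned, here and in the next paragraph, were all of differences that did not pass in the fit as reported, and the cause was not tested. Some of them passed in the fit without a filter, such as Ucp3 for exercise in males (adjusted p = 1.016e-05 in edgeR's quasi-likelihood test). In the 9 libraries, where female sedentary 3 alone stands for the sedentary females and is assumed to vary like the other groups, these were Angptl4 (0.12 in females, 0.014 for the difference of exercise effects, 0.11 for the average exercise effect), Ucp3 (0.48, difference), Plin2 (0.018, average exercise), Lipe (-0.47, sex in sedentary hearts; -0.14, average sex) and Pnpla2 (-0.033, average sex). With voom they were Ucp3 (-0.052, exercise in females; 0.13, sex in sedentary hearts), Lipe (-0.034, difference) and Angptl4 (0.13, average exercise; 0.21, sex in sedentary hearts). With the atrial covariate they were Lipe (-0.15, -0.028 and -0.089 for sex in sedentary hearts, in exercised hearts and on average), Acot2 (-0.0047, sex in exercised hearts) and Pnpla2 (-0.055, average sex); with the adipocyte covariate Lipe (-0.096, -0.022 and -0.059) and Acot2 (-0.018); with the macrophage covariate Pnpla2 (-0.0058); and with upper-quartile scaling Plin5 (-2.250e-04, average exercise).

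Leaving out 1 library also turned signs. For exercise in females the ranges were -0.45 to 0.072 (Angptl4), -0.0058 to 0.11 (Plin3), -0.036 to 0.39 (Lipe) and -0.25 to 0.36 (Ucp3). In males they were -0.40 to 0.50 (Angptl4), -0.022 to 0.082 (Plin3), -0.043 to 0.16 (Pnpla2), -0.096 to 0.22 (Lipe), -0.53 to 0.022 (Acot1), -0.24 to 0.092 (Acot2), -0.078 to 0.21 (Ucp2) and -0.50 to 0.85 (Ucp3). For the difference they were -0.73 to 0.18 (Angptl4), -0.037 to 0.078 (Plin3), -0.16 to 0.27 (Lipe), -0.066 to 0.31 (Ucp2) and -0.76 to 0.59 (Ucp3). For the average exercise effect they were -0.31 to 0.14 (Angptl4), -0.066 to 0.011 (Plin2), -0.078 to 0.064 (Plin5) and -0.21 to 0.47 (Ucp3). For sex in sedentary hearts they were -0.76 to 0.096 (Angptl4), -0.15 to 0.047 (Pnpla2), -0.14 to 0.28 (Lipe) and -0.28 to 0.23 (Ucp3); in exercised hearts -0.053 to 0.60 (Acot1), -0.099 to 0.24 (Acot2) and -0.77 to 0.58 (Ucp3); on average -0.010 to 0.21 (Lipe), -0.40 to 0.012 (Acot1) and -0.39 to 0.29 (Ucp3). The covariation count stayed at 0 of 45 pairs under RLE, a prior count of 0.5 and each library left out.

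No paired analysis was possible because the labels number the libraries without repeats, so no number joins libraries of different groups. With 3 libraries a group, differences of Angptl4 and Ucp3 had to be large to be detectable.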

Other observations

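The remaining gene lists were counted in the same way. Of 11 tested genes among 14 other thioesterases and uncoupling proteins, 9 were above 0 with exercise in females (median 0.08) and 7 in males (median 0.11), and 0 were called in any exercise or sex contrast. Ucp1, the uncoupling protein of brown fat, was at 0 in 8 libraries and reached 0.11 CPM at most, so Ucp2 and Ucp3 were the members of that trio with measurable RNA. Of 4 brown adipocyte markers, 2 were tested, and Dio2, the deiodinase that activates thyroid hormone, was higher in females than in males (0.94 ± 0.19, adjusted p = 0.0129 in edgeR's quasi-likelihood test), at 1.96, 1.68 and 1.69 CPM in exercised females and 2.94, 1.85 and 1.59 CPM in sedentary females, against 0.92, 0.68 and 0.89 CPM in exercised males and 1.24, 1.27 and 1.18 CPM in sedentary males. Dio2 was named as a gene of its list, and it is also expressed in heart muscle. Cidea, the other tested marker, lay in the other direction (-0.19 ± 0.08, adjusted p = 0.187 in edgeR's test) and was not called. The 4 markers summed to 20.8 to 26.4 CPM in sedentary females and 24.1 to 29.9 CPM in sedentary males. In exercised females the sums were 23.1 to 25.5 CPM, against 21.9 to 28.2 CPM in exercised males. Cidea made up most of these sums, at 19.0 to 28.7 CPM over all libraries, while Elovl3 reached 0.045 CPM at most.

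Glucocorticoids also induce some of the 10 genes, Angptl4 among them. Of 10 glucocorticoid-responsive genes, 8 were above 0 with exercise in females (median 0.19), 3 in males (median -0.17) and 10 in females against males (median 0.23), with 0 called. Fkbp5, a cochaperone of the glucocorticoid receptor, was at 0.75 ± 0.21 in females against males (adjusted p = 0.0747 in edgeR's test). Of 13 clock genes, 8 were above 0 with exercise in females and 10 in males, and of 10 hypoxia-responsive genes 6 and 4, with 0 called in each. Of 7 skeletal muscle markers 4 were tested, 0 were called, and the 7 summed to 2.34 to 4.04 CPM over all libraries. Of 8 cardiomyocyte markers, 8 were below 0 in females against males (median -0.06), and Ryr2, the calcium release channel, passed (-0.31 ± 0.07, adjusted p = 0.0241 in edgeR's test).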
